A study of Homo sapiens with 12 samples.

Results

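Replication and S phase genes were followed across 12 poly(A) mRNA libraries of the THP-1 and U-937 lines, both human monocytic acute myeloid leukemia (AML) lines. The genes, 49 of the 36866 in the table, were taken by symbol from a list of origin licensing, replication fork and nucleotide supply genes, and each was found once. Both lines carried a complex karyotype per the labels. Cells of each line received honokiol, a biphenol of magnolia bark, or 0.1% DMSO as the solvent control for 24 h, with 3 libraries in each of the 4 groups. The labels list honokiol at 20 and 35 µM without saying which line received which. Dose and line therefore cannot be told apart wherever the responses of the lines are compared. Nothing in the labels places the replicates in separate cultures, so every p-value here measures the spread between these libraries, which may be technical.

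DNA replication is prepared in G1, when the origin recognition complex, CDC6 and CDT1 load the MCM2 to MCM7 ring onto origins. In S phase CDC45 and the GINS complex join that ring to form the CMG helicase, polymerase alpha-primase lays down primers, and the RFC complex loads the PCNA clamp for polymerases delta and epsilon. Ribonucleotide reductase, thymidylate synthase and thymidine kinase supply deoxynucleotides, and many of these genes are classical targets of E2F transcription factors, which the RB protein holds in check until cyclin E and its kinase act. In bulk RNA, fewer cells in S phase and less mRNA per cell cannot be told apart.

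Levels are given as FPKM, which is scaled to transcript length and library size. Fold changes come from edgeR's quasi-likelihood test on the deposited counts, with Benjamini-Hochberg adjustment over all genes tested. Total counts ranged from 57406966 to 75065752 over the libraries, and replicates correlated across genes with r between 0.963 and 0.977. Mitochondrially encoded genes held 13.7% of the counts in THP-1 DMSO replicate 1 and 12.6% in U-937 DMSO replicate 1, against at most 7.55% in any other library. Of 12 monocytic and myeloid markers, 12 were at or above 0.5 FPKM in THP-1 and 11 in U-937, where MPO, the myeloperoxidase gene, averaged 0.0833 FPKM with DMSO. Among markers of other lineages PECAM1 and, in THP-1 cells with honokiol, COL1A1 reached 0.5 FPKM on average, while CD3E, CD3D, GATA1, EPCAM and NCAM1 stayed below 0.1 FPKM in every group.

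The promoter letters of the genes are shown first, since E2F letters were more frequent in their windows than over all promoters. RefSeq promoter windows (GRCh38.p14, from 250 bases before to 50 after the start) were given for 42 of the 49 genes. At least one of the E2F letter runs TTTCCCGC, TTTCGCGC, TTTGCCGC or TTTGGCGC stood on either strand in 21 of the 42 windows (50%), against 908 of all 27305 windows (3.33%). The letters CCAAT stood in 59.5% of the windows, against 35.7% of all. The CHR letters TTTGAA or TTCGAA, known from mitotic genes, stood in 4.76%, against 16.6% of all. The 250 bases before the RefSeq start are given for 4 genes whose levels are described later. They are printed 5′ to 3′ on the strand of the gene, with the E2F letters of either strand in capitals. They lie at chr16:85688955-85689204 (minus strand, GINS2), chr12:132687343-132687592 (minus, POLE), chr19:4909251-4909500 (plus, UHRF1) and chr7:100101398-100101647 (minus, MCM7). The stretches of UHRF1 and MCM7 lie inside the gene bounds of the deposited counts, chr19:4903080-4962154 and chr7:100092728-100101940.
GINS2: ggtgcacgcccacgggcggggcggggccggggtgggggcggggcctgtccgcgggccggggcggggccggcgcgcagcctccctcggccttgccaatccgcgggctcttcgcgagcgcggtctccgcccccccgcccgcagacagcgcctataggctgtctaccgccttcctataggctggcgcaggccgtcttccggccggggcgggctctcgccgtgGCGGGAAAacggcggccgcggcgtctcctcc
POLE: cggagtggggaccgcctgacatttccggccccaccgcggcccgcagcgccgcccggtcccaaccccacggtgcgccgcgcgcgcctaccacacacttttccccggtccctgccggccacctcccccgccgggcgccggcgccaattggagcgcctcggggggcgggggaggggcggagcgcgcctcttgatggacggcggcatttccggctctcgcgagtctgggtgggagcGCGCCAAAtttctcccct
UHRF1: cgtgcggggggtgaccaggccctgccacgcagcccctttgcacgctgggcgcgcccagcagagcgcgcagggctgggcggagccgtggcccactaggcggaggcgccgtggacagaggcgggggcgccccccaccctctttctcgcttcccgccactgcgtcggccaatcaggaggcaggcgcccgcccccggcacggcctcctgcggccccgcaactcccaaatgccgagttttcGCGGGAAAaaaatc
MCM7: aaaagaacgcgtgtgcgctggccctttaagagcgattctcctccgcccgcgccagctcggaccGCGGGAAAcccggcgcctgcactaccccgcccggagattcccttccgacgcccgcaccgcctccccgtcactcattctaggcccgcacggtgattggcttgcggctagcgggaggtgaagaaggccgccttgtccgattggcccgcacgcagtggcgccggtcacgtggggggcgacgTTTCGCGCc
Counted from the start, with -1 as the last base before it, the letters stood at -31 to -24 in GINS2, at -18 to -11 in POLE and at -14 to -7 in UHRF1. MCM7 held them at -187 to -180 and again at -9 to -2. CDC6 held them only after its start, at 8 to 15, and TK1 had none in its window. Such a match describes letters only, and binding was not measured.

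All 49 genes were expressed in both lines. With DMSO their mean levels ran from 3.75 FPKM (POLA1, the catalytic subunit of polymerase alpha) to 119.9 FPKM (TK1, cytosolic thymidine kinase) in THP-1, with a median of 18.2 FPKM. In U-937 they ran from 4 FPKM (PRIM2, the large primase subunit) to 298.2 FPKM (PCNA, the sliding clamp), with a median of 22.8 FPKM. Subunits that work together did not stand at one level. The 6 MCM2 to MCM7 mRNAs spanned 2.67-fold in THP-1 with DMSO, from MCM4 at 36.9 FPKM to MCM3 at 98.5 FPKM, and 3.93-fold in U-937, from MCM5 at 39.9 FPKM to MCM7 at 156.7 FPKM. In the GINS complex GINS3 was the lowest and GINS1 the highest in all 4 groups, 3.92-fold apart in THP-1 and 6.52-fold in U-937 with DMSO. The RPA trimer, which coats single strand DNA, ranged 3.87-fold in THP-1 and 12.6-fold in U-937, with RPA3 the lowest and RPA2 the highest in both.

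The untreated lines differed in part of the machinery. Between U-937 and THP-1 with DMSO 21 of the 49 genes passed an adjusted p of 0.05, 15 higher and 6 lower in U-937, beside 52.9% of the 16283 genes tested, 24.4% of them higher and 28.5% lower. The share of the genes past the test, 21 of 49, was thus below that of all genes. The median log2 difference over the 49 was 0.20, beside -0.047 over all genes tested, and it was 0.066 without THP-1 DMSO replicate 2. With limma on log2(FPKM + 0.5) 22 passed, and with DESeq2 22. The 3 U-937 libraries stood above all THP-1 libraries for 20 genes (40.8%, against 27.7% of all genes) and below them for 5 (10.2%, against 29%). By role, 6 of 9 polymerase and primase genes passed, 3 of 4 nucleotide supply genes, 3 of 6 CMG genes, 4 of 10 licensing genes, 2 of 4 chromatin genes, 2 of 6 clamp genes and 1 of 5 Okazaki fragment genes. None of the 5 S phase entry genes (CCNE1, CCNE2, E2F1, CLSPN and DTL) passed by edgeR.

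**Figure D1:**
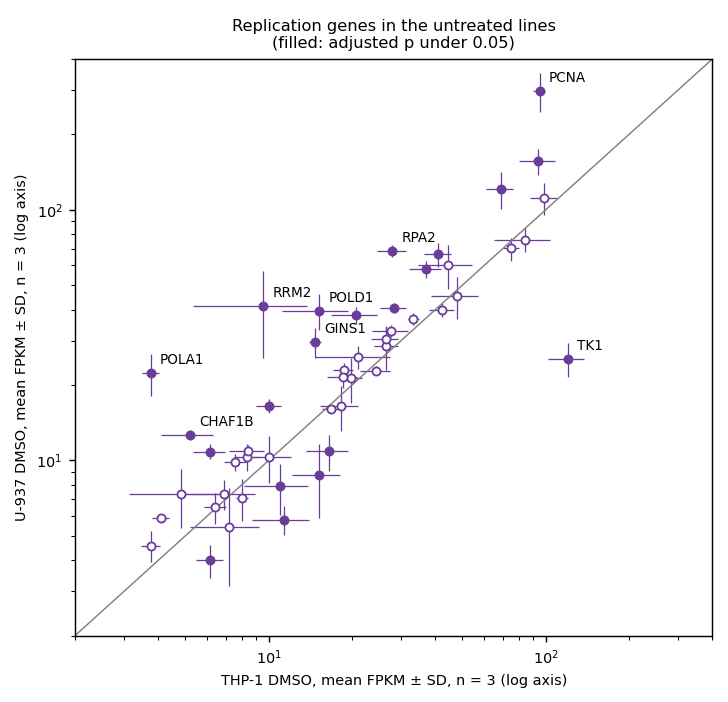
Mean FPKM of the 49 genes in DMSO libraries of THP-1 (x) and U-937 (y), both on log axes, with SD bars over n = 3 libraries and the line of equal levels. Filled points passed an adjusted p of 0.05 between the lines, and the 8 named genes had the smallest p, with POLA1 and PCNA above the line and TK1 below it.

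Polymerase genes are taken first, since POLA1 gave the largest of these differences. It (chrX:24693909-24996986, GRCh38) stood at 3.93, 3.45 and 3.86 FPKM in the THP-1 DMSO libraries and at 17.53, 23.69 and 25.64 FPKM in those of U-937. The lines did not overlap, and the level was 5.71-fold higher in U-937 (log2 2.51 ± 0.15 SE, edgeR adjusted p = 1.21e-07). POLA1 was thereby the lowest of the 4 polymerase alpha-primase mRNAs in THP-1 and the highest in U-937, where PRIM2 was the lowest. A small Cajal body RNA, SCARNA23, lies within it on the same strand. POLD1, the catalytic subunit of polymerase delta, read 10.88, 15.87 and 18.93 FPKM in THP-1 and 34.68, 37.07 and 46.92 FPKM in U-937. It was 2.53-fold higher in U-937 with no overlap (log2 1.34 ± 0.18 SE, edgeR adjusted p = 5.06e-05), and part of it is shared with the same-strand gene AC020909.1. The small subunit POLD2 (1.76-fold) and POLD3 (1.71-fold) were also higher in U-937, whereas PRIM1 (0.556-fold) and PRIM2 (0.629-fold), the primase subunits, were lower. On the same strand, PRIM1 shares part of its locus with AC117378.1 and NACA, PRIM2 with FO680682.1 and POLD3 with AP001372.2.

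Nucleotide supply genes differed in opposite directions. TK1 (chr17:78174091-78187233), which phosphorylates salvaged thymidine, gave 99.7, 126.98 and 133.16 FPKM in THP-1 and 21.16, 26.23 and 29.05 FPKM in U-937. It was 0.206-fold in U-937 (log2 -2.28 ± 0.14 SE, edgeR adjusted p = 1.61e-07), and the lowest THP-1 library stood above the highest U-937 library. RRM2, the S phase subunit of ribonucleotide reductase, gave 8, 6.35 and 14.37 FPKM in THP-1 and 37.84, 58.25 and 27.6 FPKM in U-937. These did not overlap, and RRM2 was 4.20-fold higher in U-937 (log2 2.07 ± 0.31 SE, edgeR adjusted p = 0.000153). Its value is uncertain because C2orf48 and AC007240.1 share its locus on the same strand. The large subunit RRM1 was 1.39-fold higher (edgeR adjusted p = 0.00641), and TYMS, thymidylate synthase, did not pass (0.876-fold, edgeR adjusted p = 0.295).

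Clamp, helicase and chromatin genes followed. PCNA held 96.85, 89.76 and 98.71 FPKM in THP-1 and 244.41, 349.52 and 300.67 FPKM in U-937, a 3.02-fold higher level (log2 1.60 ± 0.14 SE, edgeR adjusted p = 2.45e-06). RPA2, the middle RPA subunit, held 24.56, 31.3 and 27.87 FPKM against 66.52, 66.25 and 73.1 FPKM, 2.38-fold higher (log2 1.25 ± 0.12 SE, edgeR adjusted p = 5.4e-06). Neither gene overlapped between the lines, and neither RPA1 nor RPA3 passed. GINS1 held 15.19, 14.99 and 13.85 FPKM in THP-1 and 25.11, 30.99 and 33.14 FPKM in U-937, 1.95-fold higher (log2 0.96 ± 0.13 SE, edgeR adjusted p = 7.15e-05). CHAF1B, a subunit of the CAF-1 chaperone that places histones behind the fork, held 5.65, 3.92 and 6.01 FPKM against 13.12, 12.73 and 12 FPKM, 2.35-fold higher (log2 1.23 ± 0.18 SE, edgeR adjusted p = 0.000126). Both were separated between the lines. CHAF1B shares part of its locus with MORC3 on the same strand. MCM6, MCM7 and MCM4 of the helicase ring were 1.69-fold, 1.61-fold and 1.52-fold higher in U-937, while MCM10, which activates the helicase, was 0.490-fold and CDC6 0.635-fold.

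Honokiol and DMSO were then compared within THP-1. No gene of the 49 passed an adjusted p of 0.05 by edgeR, beside 6 of 14600 genes tested (0.0411%). At an unadjusted p of 0.05 there were 21, all of them lower with honokiol, beside 6.22% of all genes lower and 6.84% higher. By limma on log2(FPKM + 0.5) none passed adjustment and 13 had an unadjusted p under 0.05, all lower, beside 13.5% of all genes in either direction. DESeq2 called 5, GINS2, CCNE2, MCM4, POLE and CDC6, all lower, beside 3.6% of all genes. The unadjusted count moved when single libraries were left out. It was 6 without honokiol replicate 3, 9 without honokiol replicate 2 and 23 without DMSO replicate 2. The share of all genes at that p was 13.1% in the full fit and 6.12%, 8.02% and 10.9% in these fits. Estimates were below 0 for 41 of the 49 genes, beside 50.1% of all genes, with a median of -0.35 on the log2 scale (all genes -0.0011). That median was -0.25 without DMSO replicate 1, the library with the high mitochondrial share. The 3 honokiol libraries of 14 genes all stood below all 3 DMSO libraries (28.6%, against 7.62% of all genes), and in no gene did they all stand above (13% of all genes).

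**Figure D2:**
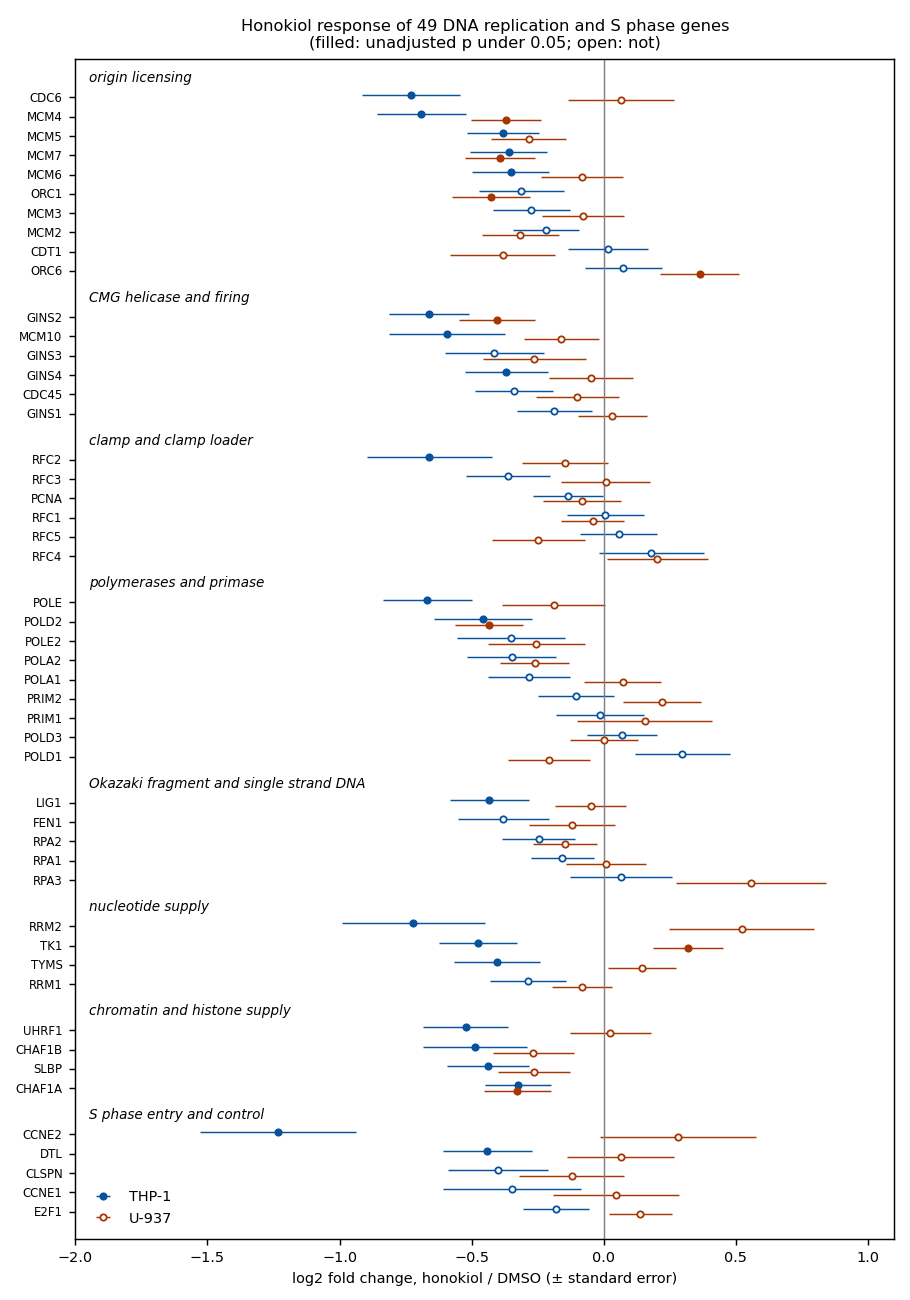
Log2 fold change of each gene with honokiol against DMSO (x, ± standard error) in THP-1 (blue) and U-937 (brown), grouped by role. Filled points had an unadjusted p under 0.05 and the 21 filled THP-1 points all lie below 0.

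Among THP-1 licensing genes 8 of 10 estimates were below 0 and 5 had an unadjusted p under 0.05 (CDC6, MCM4, MCM5, MCM6 and MCM7). CDC6 (chr17:40287879-40304657), the loader of the MCM ring, stood at 19.51, 16.2 and 13.84 FPKM with DMSO and at 10.77, 11.15 and 9.35 FPKM with honokiol. Every honokiol library lay below every DMSO library, at 0.603-fold (log2 -0.73 ± 0.19 SE, edgeR adjusted p = 0.212). MCM4, a ring subunit, gave 40.82, 31.41 and 38.37 FPKM with DMSO and 20.8, 25.91 and 24.88 FPKM with honokiol. The groups were again separate, at 0.620-fold (log2 -0.69 ± 0.17 SE, edgeR adjusted p = 0.188). The other MCM ring genes ranged from 0.768-fold (MCM5) to 0.860-fold (MCM2). ORC6 and CDT1, the remaining licensing factors with estimates above 0, were at 1.05-fold and 1.01-fold.

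All 6 CMG and firing genes had estimates below 0 in THP-1, and 3 an unadjusted p under 0.05 (GINS2, MCM10 and GINS4). GINS2 (chr16:85676198-85688954) had the smallest p of the 49, with 10.12, 8.99 and 11.01 FPKM with DMSO and 7.06, 6.42 and 6.32 FPKM with honokiol. The honokiol libraries were all lower, at 0.632-fold (log2 -0.66 ± 0.15 SE, edgeR adjusted p = 0.172). GINS1, CDC45, GINS3 and GINS4 were at 0.878-fold, 0.791-fold, 0.751-fold and 0.774-fold, so the complex partners had smaller estimates than GINS2; their differences from it were not tested. MCM10 was at 0.663-fold, and its libraries overlapped between treatments.

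Polymerase genes in THP-1 were mixed. POLE, the catalytic subunit of polymerase epsilon on the leading strand, read 7.55, 8.26 and 8.24 FPKM with DMSO and 6.52, 4.74 and 4.43 FPKM with honokiol. It was separated between treatments, at 0.630-fold (log2 -0.67 ± 0.17 SE, edgeR adjusted p = 0.211), although honokiol replicate 1 stood nearer to the DMSO libraries than replicates 2 and 3 did. POLD2 was at 0.729-fold with overlapping libraries. POLD1 had the highest estimate of all 49 genes, 1.23-fold (edgeR adjusted p = 0.5), and its lowest library was DMSO replicate 1 at 10.88 FPKM. Primase subunits PRIM1 and PRIM2 were at 0.990-fold and 0.930-fold.

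In THP-1, 1 of 6 clamp genes (RFC2) and 1 of 5 Okazaki fragment genes (LIG1) had an unadjusted p under 0.05. RFC2, a clamp loader subunit, gave 20.8, 14.86 and 27.48 FPKM with DMSO and 15.45, 14.4 and 11.61 FPKM with honokiol. DMSO replicate 2 lay among the honokiol values, and the estimate was 0.633-fold (log2 -0.66 ± 0.24 SE, edgeR adjusted p = 0.317). LIG1, the ligase that seals Okazaki fragments, gave 16.35, 20.91 and 18.32 FPKM with DMSO and 16.65, 12.41 and 13.59 FPKM with honokiol. The groups overlapped at DMSO replicate 1 and honokiol replicate 1, at 0.741-fold (log2 -0.43 ± 0.15 SE, edgeR adjusted p = 0.311). PCNA was at 0.910-fold, and RFC4 and RFC5 were at 1.13-fold and 1.04-fold.

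The nucleotide supply genes all had estimates below 0 in THP-1, 3 of 4 with an unadjusted p under 0.05. TK1 stood at 102.48, 82.77 and 82.03 FPKM with honokiol, against 99.7, 126.98 and 133.16 FPKM with DMSO. DMSO replicate 1 lay just below the highest honokiol library, and the estimate was 0.719-fold (log2 -0.48 ± 0.15 SE, edgeR adjusted p = 0.282). RRM2 was at 0.607-fold and TYMS at 0.756-fold, both with overlapping libraries. RRM2 stood at 6.35, 6 and 5.66 FPKM with honokiol, against 14.37 FPKM in DMSO replicate 3 and 8 and 6.35 FPKM in the other DMSO libraries.

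Chromatin genes were the one role in which every THP-1 gene had an unadjusted p under 0.05, 4 of 4. UHRF1, which reads half-methylated DNA behind the fork, gave 25.88, 23.83 and 29.66 FPKM with DMSO and 18.27, 22.6 and 16.49 FPKM with honokiol. The groups were separate, at 0.696-fold (log2 -0.52 ± 0.16 SE, edgeR adjusted p = 0.282). SLBP, which binds the stem-loop of replication-dependent histone mRNAs, gave 45.22, 36.25 and 41.42 FPKM with DMSO and 34.22, 30.5 and 29.8 FPKM with honokiol. It was separate too, at 0.737-fold (log2 -0.44 ± 0.16 SE, edgeR adjusted p = 0.311). The CAF-1 subunits CHAF1A and CHAF1B were at 0.799-fold and 0.713-fold.

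Of the S phase entry genes, CCNE2 (chr8:94879770-94896678), encoding cyclin E2, had the lowest estimate of the 49 in THP-1. It stood at 6.56, 3.14 and 4.8 FPKM with DMSO and at 1.85, 2.35 and 2.28 FPKM with honokiol. All honokiol libraries were below all DMSO libraries, at 0.425-fold (log2 -1.23 ± 0.30 SE, edgeR adjusted p = 0.185), while the DMSO libraries themselves spread widely. INTS8 and NDUFAF6 overlap CCNE2 on the opposite strand, and the counting is not stated to use strand. CCNE1, cyclin E1, was at 0.786-fold (edgeR adjusted p = 0.586), and the transcription factor gene E2F1 at 0.881-fold (edgeR adjusted p = 0.551). DTL, which targets CDT1 for destruction, was at 0.737-fold (edgeR adjusted p = 0.339), and the checkpoint mediator gene CLSPN at 0.757-fold (edgeR adjusted p = 0.409).

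**Figure D3:**
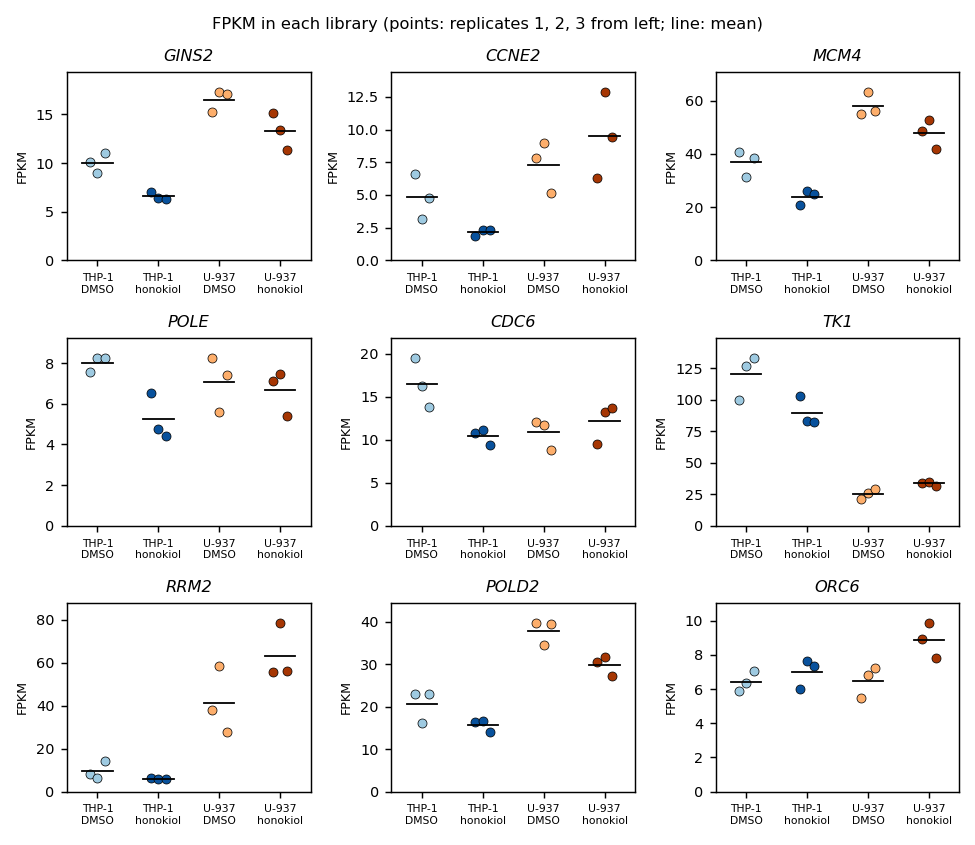
FPKM (y, from 0) of 9 genes in each library, with THP-1 in blue and U-937 in brown, lighter for DMSO, and a line at the mean of n = 3. In THP-1 the honokiol points of GINS2, CCNE2, MCM4, POLE and CDC6 lie below all DMSO points, and in U-937 those of TK1 and ORC6 lie above.

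In U-937 cells no gene of the 49 passed adjustment by edgeR either, beside 13 of 13726 genes (0.0947%), nor by DESeq2 or limma. At an unadjusted p of 0.05 there were 8, 6 lower and 2 higher, beside 8.44% of all genes lower and 8.25% higher. In either direction this was 16.3% of the 49, near the 16.7% of all genes. The genes named for U-937 are thus a description of single genes. The balance of lower and higher genes turned with the scaling, since limma on FPKM values gave 1 lower and 3 higher with each of the 3 pseudocounts. The count of 8 became 2 without honokiol replicate 3, 3 without honokiol replicate 2, 4 without DMSO replicate 2, and 5 without DMSO replicate 1 or honokiol replicate 1. The share of all genes at that p was 11%, 12.3%, 15%, 16.4% and 12.9% in these fits, in the same order. Estimates were below 0 for 30 of 49 genes (48% of all genes), with a median of -0.083 on the log2 scale (all genes 0.016). The split depended on the scaling, as did the median of all genes. Limma on log2(FPKM + 0.5) put 23 of the 49 below 0, with a median of 0.0059 beside 0.094 over all genes. In both fits the median of the 49 lay below that of all genes. Groups did not overlap in 7 lower genes (14.3%, against 7.5% of all genes) and 4 higher genes (8.16%, against 16.7%).

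Licensing genes made up 3 of the 6 lower genes in U-937. MCM7 gave 134.95, 165.69 and 169.35 FPKM with DMSO and 134.5, 132.56 and 113.12 FPKM with honokiol, at 0.762-fold (log2 -0.39 ± 0.13 SE, edgeR adjusted p = 0.216). ORC1, the ATPase of the origin recognition complex, gave 33.87, 30.84 and 33.97 FPKM against 29.72, 26.81 and 21.77 FPKM, at 0.744-fold (log2 -0.43 ± 0.15 SE, edgeR adjusted p = 0.219). MCM4 gave 54.96, 63.16 and 55.9 FPKM against 48.7, 52.65 and 41.95 FPKM, at 0.773-fold (log2 -0.37 ± 0.13 SE, edgeR adjusted p = 0.232). In all 3 genes the treatments were separate, though for MCM7 only by the narrow gap between 134.95 and 134.5 FPKM. MCM7 also hosts the miRNAs MIR25, MIR93 and MIR106B. MCM2 gave 63.69, 68.43 and 78.2 FPKM with DMSO and 68.85, 60 and 50.66 FPKM with honokiol (0.803-fold, edgeR adjusted p = 0.33). MCM5 gave 39.07, 37.89 and 42.79 FPKM against 39.1, 36.33 and 29.22 FPKM (0.821-fold, edgeR adjusted p = 0.359). Both overlapped, and honokiol replicate 3 was the lowest library of each.

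ORC6, the smallest subunit of the origin recognition complex, had an estimate in the other direction. It stood at 5.46, 6.81 and 7.24 FPKM with DMSO and at 8.94, 9.85 and 7.83 FPKM with honokiol. The honokiol libraries were all higher, at 1.29-fold (log2 0.36 ± 0.15 SE, edgeR adjusted p = 0.281), so the complex's mRNAs ORC1 and ORC6 had estimates of opposite sign.

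Outside licensing, POLD2 had the smallest p of the 49 in U-937, with 39.64, 34.55 and 39.5 FPKM with DMSO and 30.64, 31.8 and 27.29 FPKM with honokiol. The treatments were separate, at 0.740-fold (log2 -0.43 ± 0.13 SE, edgeR adjusted p = 0.177). GINS2 gave 15.23, 17.3 and 17.06 FPKM with DMSO and 15.16, 13.41 and 11.31 FPKM with honokiol, at 0.756-fold (log2 -0.40 ± 0.14 SE, edgeR adjusted p = 0.23). CHAF1A, the large CAF-1 subunit, gave 37.73, 37.78 and 34.35 FPKM against 32.08, 33.23 and 28.12 FPKM, at 0.797-fold (log2 -0.33 ± 0.13 SE, edgeR adjusted p = 0.262). Both were separate between treatments, GINS2 only narrowly. TK1 had an estimate above 0, with 21.16, 26.23 and 29.05 FPKM with DMSO and 34.29, 34.92 and 31.84 FPKM with honokiol. Every honokiol library was higher, at 1.25-fold (log2 0.32 ± 0.13 SE, edgeR adjusted p = 0.286). RRM2 was at 1.44-fold (edgeR adjusted p = 0.385), TYMS at 1.11-fold and RRM1 at 0.944-fold. Of the 5 S phase entry genes 4 had estimates above 0, from 1.03-fold (CCNE1) to 1.21-fold (CCNE2), and CLSPN was at 0.919-fold. None of these had an unadjusted p under 0.05.

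**Figure D4:**
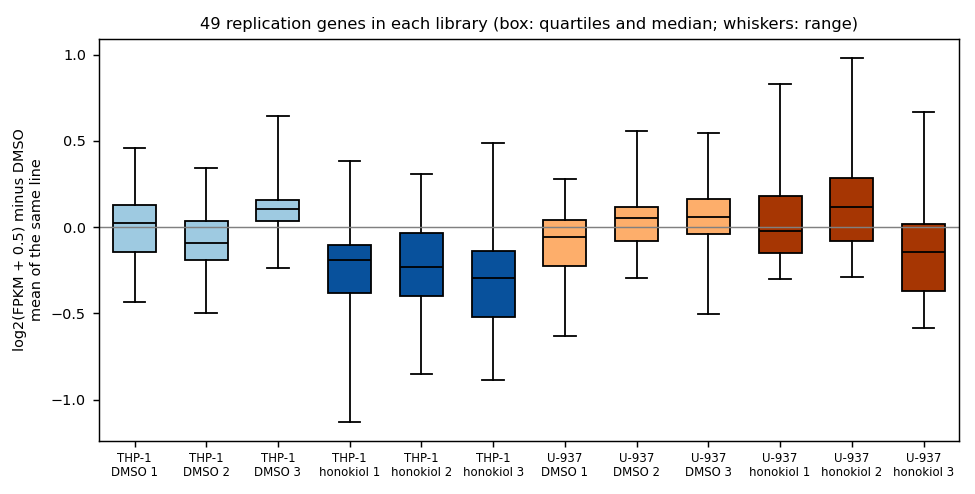
Log2(FPKM + 0.5) of the 49 genes in each library minus the DMSO mean of the same line (y), with boxes for the quartiles and median and whiskers for the range. The THP-1 honokiol medians lie between -0.30 and -0.19, and the U-937 honokiol medians between -0.15 and 0.12.

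Library by library, the median of the 49 genes against the DMSO mean of the line was -0.19, -0.23 and -0.30 in the THP-1 honokiol libraries. The THP-1 DMSO libraries lay between -0.09 and 0.10, above all 3. In U-937 the honokiol medians were -0.02, 0.12 and -0.15, on both sides of the DMSO libraries, which lay between -0.06 and 0.06. These medians are on log2(FPKM + 0.5) without TMM scaling. On that scale the honokiol median over all genes tested was itself 0.053 in THP-1 and 0.094 in U-937 by limma. It was not taken per library, so library-wide shifts are not removed here. The lines have no library in common, so their estimates can be set side by side. Both were below 0 for 26 genes (30.7% of all 12343 genes that both fits held), 15 were below 0 in THP-1 and above in U-937, 4 were the reverse, and 4 were above 0 in both. CHAF1A, GINS2, MCM4, MCM7 and POLD2 were lower at an unadjusted p under 0.05 in both lines, 23.8% of the 21 in THP-1 and 83.3% of the 6 in U-937. Over all genes held by both fits 174 (1.41%, against 10.2% of the 49) were lower in both. They made up 21.7% of the lower genes in THP-1 and 16% of those in U-937. The U-937 share rests on 6 genes and on the count fit, since limma left 1 lower gene there. It also has to be read beside the THP-1 share, since 42.9% of the 49 were lower in THP-1, against 6.22% of all genes tested there.

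The difference between the responses was tested in one fit of all 12 libraries. No gene of the 49 passed adjustment by edgeR, beside 18 of 16283 genes (0.111%). DESeq2 called TK1 alone, beside 1.62% of all genes, and limma called none. At an unadjusted p of 0.05 there were 6 (TK1, CCNE2, RRM2, CDC6, TYMS and UHRF1), all with the higher estimate in U-937, beside 4.82% of all genes in that direction. Over the 49 the median difference, U-937 minus THP-1, was 0.23 on the log2 scale (all genes 0.010), and 40 were above 0 and 9 below, beside 49.2% of all genes below 0. The median was 0.096 without DMSO replicate 1 of both lines and 0.14 without that of THP-1 alone, the libraries with high mitochondrial shares, whose part in it was otherwise not tested.

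TK1 had the smallest p for this difference, 0.719-fold in THP-1 against 1.25-fold in U-937 (difference log2 0.78 ± 0.19 SE, edgeR adjusted p = 0.232). CCNE2 was at 0.425-fold against 1.21-fold (difference log2 1.5 ± 0.46 SE, edgeR adjusted p = 0.346). In U-937 CCNE2 stood at 7.85, 8.95 and 5.16 FPKM with DMSO and 6.31, 12.86 and 9.39 FPKM with honokiol, with overlap. RRM2 was at 0.607-fold against 1.44-fold (difference log2 1.23 ± 0.43 SE, edgeR adjusted p = 0.4). Its U-937 values were 37.84, 58.25 and 27.6 FPKM with DMSO and 55.46, 78.24 and 55.99 FPKM with honokiol, and DMSO replicate 2 lay among the honokiol libraries. CDC6 was at 0.603-fold against 1.05-fold (difference log2 0.79 ± 0.29 SE, edgeR adjusted p = 0.426). In U-937 it overlapped, at 12.05, 11.7 and 8.84 FPKM with DMSO and 9.51, 13.24 and 13.72 FPKM with honokiol. At the other end, the log2 differences of POLD2 and CHAF1A were 0.013 ± 0.23 SE and -0.013 ± 0.17 SE.

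Related genes outside the 49 were read from fixed lists, and in neither line did any of their genes pass adjustment by edgeR. All counts that follow use an unadjusted p under 0.05. At that p 6.22% of all genes were lower and 6.84% higher in THP-1, and 8.44% lower and 8.25% higher in U-937. Several of the list counts lie near or below these shares. Of 39 other replisome genes tested, 6 were lower and 2 higher in THP-1, and 1 lower and 2 higher in U-937. SAMHD1, a phosphohydrolase that breaks down deoxynucleotides, was higher in both, at 2.01-fold in THP-1 (edgeR adjusted p = 0.288) and 3.17-fold in U-937 (edgeR adjusted p = 0.0687), from a U-937 DMSO mean of 0.577 ± 0.124 FPKM (SD, n = 3 libraries). MCMBP, an MCM-binding protein gene, was at 0.694-fold in THP-1. Of E2F, RB and G1 control genes, 7 of 31 were lower and 1 higher in THP-1, and 3 of 30 lower and 2 higher in U-937. CCND3, cyclin D3, was at 0.541-fold in THP-1 and 0.591-fold in U-937, and E2F2 at 0.743-fold and 1.45-fold. Of 19 S phase checkpoint genes, 2 were lower and 1 higher in THP-1 and 1 was higher in U-937. Of 18 mitotic genes, 1 was lower and 1 higher in THP-1 and 3 lower and 2 higher in U-937. CDC20, the activator of the anaphase-promoting complex, was at 1.28-fold in THP-1 and 0.749-fold in U-937. The median log2 fold change over the mitotic list was -0.091 for THP-1 and -0.15 for U-937, and over the 49 genes it was -0.35 and -0.083.

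The promoter letters were set beside the responses as a description. In THP-1 the E2F letters stood in the windows of 9 of 17 genes that were lower at an unadjusted p under 0.05 and in 12 of the 25 others with a window. In U-937 they stood in 2 of 5 such genes and 19 of 37 others. GINS2, POLE and UHRF1, with the letters close to the start as printed, and TK1, with none, were all among the lower THP-1 genes.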

How the data were processed

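Poly(A) mRNA of 12 libraries was sequenced as read pairs. The authors deposited, per gene and library, FPKM values, which correct for transcript length and sequencing depth, and estimated counts, which are whole numbers that often fall on multiples of 4, so that their sums overstate fragments. The submitters' processing notes name Bowtie 0.12.2, HISAT2 2.0, StringTie 1.3.0 and the mouse build mm8. The coordinates are those of human GRCh38: 32826 of 35762 genes found in GENCODE 29 (91.8%) lay within 1000 bases of it.

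Estimated counts were used as whole numbers, although they are estimates. Genes with at least 0.5 FPKM in at least 3 libraries of a fit were tested with edgeR 4.0.16 (R 4.3.3, TMM normalization, quasi-likelihood test): honokiol against DMSO within each line, and the line difference and the difference of responses in one fit of 12 libraries. All 49 genes passed that filter in every fit. A call is a Benjamini-Hochberg adjusted p under 0.05 over all genes tested; with an absolute log2 fold change over 1 added, no honokiol call of a listed gene exists either. An exact permutation test of 3 against 3 libraries cannot go below 0.1. The edgeR procedure was tested on simulated data. Within a line it recovered most changes of 2 on the log2 scale but did not recover changes of 1. Smaller changes were not simulated, and DESeq2 and limma were not run on the simulated data. Most of the estimates reported for honokiol are smaller than the changes that the edgeR calls recovered there. Overlapping genes follow GENCODE 29: 15 of the 49 overlap another gene on the same strand and 22 on the opposite strand, and strand use is not given in the sources used here. Named pseudogene copies of PCNA, POLD2, RPA2 and RRM2 were in the table at no more than 0.53 FPKM.

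The members and lists were chosen with earlier results of these data known. Values in every library are given for the 10 genes with the smallest p in each honokiol comparison, 8 between lines and 4 for the difference of responses. Alternatives were DESeq2 1.42.0, limma 3.58.1 on log2(FPKM + 0.5) and other pseudocounts, RLE size factors, other filters, counts divided by 4, a replicate block and each library left out. Leaving out DMSO replicate 1 of both lines was added after seeing the data. Some results of the marker and related gene lists are not reported here.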

Additional observations from a re-analysis of the deposited data

How the results depend on the processing

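Named single-gene results were counted once per alternative, and 598 kept their direction and side of the threshold. Of these, 192 were differences between the lines that stayed called. The other kept results, 155 in THP-1, 160 in U-937 and 91 for the difference of responses, were uncalled and stayed so. A further 6 passed the threshold only under DESeq2. These were GINS2 (adjusted p = 0.0081), CCNE2 (0.00512), MCM4 (0.0189), POLE (0.0297) and CDC6 (0.0278) in THP-1, and TK1 for the difference of responses (0.0231). DESeq2 thus called 5 of the 49 in THP-1 and 1 for the difference. The cause was not tested. The THP-1 count at an unadjusted p under 0.05, 21, was 13 under limma with each of the 3 pseudocounts and ran from 6 to 23 with one library left out. Of all genes, 13.1% had such a p in the main fit and 13.5% under limma with a pseudocount of 0.5. That share ran from 6.12% to 16% with one library left out. The THP-1 median, -0.35, was -0.27 with a pseudocount of 0.5 and -0.26 with 1 under limma, and ran from -0.39 to -0.25 with one library left out. Over all genes the median was -0.0011 in the main fit, and 0.053 and 0.045 in these limma fits. The U-937 count, 8 (6 lower and 2 higher), was 4 under limma (1 lower and 3 higher) and ran from 2 to 8 with one library left out. Of all genes, 16.7% had such a p in the main fit and 16.9% under limma with a pseudocount of 0.5. That share ran from 11% to 16.5% with one library left out. The U-937 median, -0.083, was 0.0059 under limma with a pseudocount of 0.5, beside 0.016 and 0.094 over all genes. The line median, 0.20, ran from 0.066 (without THP-1 DMSO replicate 2) to 0.27 and its calls from 20 to 24. The median difference of responses, 0.23, ran from 0.14 to 0.30 with one library left out and was 0.096 without DMSO replicate 1 of both lines. No called result changed direction.

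Replicate numbers are shared by the groups. Within a line, deviations of same-numbered libraries correlated at -0.107, -0.155 and 0.094 in THP-1 and at -0.121, -0.104 and -0.108 in U-937. The numbers were therefore not taken to pair the treatments. Across the lines, same-numbered DMSO libraries correlated at 0.095, 0.028 and 0.113, and other-numbered ones between -0.126 and 0.035. Same-numbered honokiol libraries correlated at -0.031, -0.033 and -0.011. A link by number between the DMSO libraries was otherwise not tested. With a replicate block the U-937 count was 3 (11% of all genes) and the THP-1 count 15 (11.2% of all genes), and no honokiol call appeared. Between the lines 22 of the 49 passed adjustment with that block. With 3 libraries a group, the precision of the fold changes is limited, and a p that misses the threshold does not show that levels were equal.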
